A study of Mus musculus with 2 samples.

Results

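The antigen presentation genes described here are 10 genes of the mouse heart, chosen by name: B2m, H2-K1, H2-D1, Tap1 and Nlrc5 of the class I pathway, and H2-Aa, H2-Ab1, H2-Eb1, Cd74 and Ciita of the class II pathway. All 10 were found among the 32589 genes of the single-nucleus RNA sequencing (snRNA-seq) tables. The study asked how a PD-1 inhibitor, an antibody that blocks the checkpoint receptor PD-1, changes the heart. The control library came from hearts of young adult male C57BL/6 mice given PBS intraperitoneally on days 1 and 14 of a 28-day cycle, and the PD-1 inhibitor library, called the treated library here, from hearts of mice given InVivoPlus anti-mouse PD-1 antibody at 5 mg/kg on the same days. There was 1 library for each condition, and how many hearts went into each is not given in the sources used here. No difference between the libraries below therefore has a replicate check, no test was possible, and a difference of treatment cannot be told apart from a difference of library.

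MHC class I molecules sit on nearly all nucleated cells and show peptides made inside the cell to CD8+ T cells. Their heavy chains (here H2-K1 and H2-D1) pair with the light chain B2m, TAP1 is a subunit of the transporter that brings peptides into the endoplasmic reticulum, and NLRC5 is the transcriptional coactivator of class I genes. MHC class II molecules are made mainly by macrophages, dendritic cells and B cells, show peptides taken up from outside to CD4+ T cells, consist of an alpha and a beta chain (H2-Aa with H2-Ab1, and the H2-E beta chain H2-Eb1), are guided by the invariant chain CD74, and depend on the coactivator CIITA. Neither NLRC5 nor CIITA binds DNA on its own. Both act through proteins bound at promoter elements called the X and Y boxes.

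In the gene annotation of the mouse GRCm38 genome (GENCODE), 6 members lie in or beside the major histocompatibility complex on chromosome 17. They are H2-K1 (chr17:33996017-34000347, minus strand), Tap1 (chr17:34187553-34197225, plus), H2-Ab1 (chr17:34257689-34269419, plus), H2-Aa (chr17:34282744-34287823, minus), H2-Eb1 (chr17:34305867-34316674, plus) and H2-D1 (chr17:35262730-35267499, plus). B2m (chr2:122147686-122153083, plus), Nlrc5 (chr8:94434356-94527272, plus), Ciita (chr16:10480059-10528418, plus) and Cd74 lie on other chromosomes. The spans are of 2 kinds: the chain and transporter genes are short, between 4.33 and 11.7 kb, and the regulators Ciita and Nlrc5 are long, at 48.4 and 92.9 kb. This contrast returns in the ratios between libraries.

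The RefSeq promoter table (GRCm38.p6, 250 bases before to 50 after each start) held 6 of the 10 members, and Nlrc5, H2-Ab1, Cd74 and Ciita were not in it. The windows were searched on both strands for TGACG, the core of the X2 box, and for ATTGG, the core of the Y box. TGACG followed by ATTGG on the same strand with 10 to 25 bases between them stood in 4 of these 6 members and in 0.603% of all 32851 promoters, while TGACG alone stood in 20.8% and ATTGG alone in 37.4% of them. The pair had 20 bases between its cores in B2m, H2-K1 and H2-D1 and 21 in H2-Aa. The stretches below are shown because both arms of the pathway, class I and class II, carry the same pair of letters at nearly the same distance. Capitals mark the 2 cores, and each stretch is written 5′ to 3′ on the strand of its gene.
B2m (chr2:122147584-122147663, plus strand): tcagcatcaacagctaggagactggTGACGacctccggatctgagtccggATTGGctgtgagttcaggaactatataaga
H2-K1 (chr17:34000348-34000413, minus strand): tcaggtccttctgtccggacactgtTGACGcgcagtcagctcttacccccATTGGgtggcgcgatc
H2-D1 (chr17:35262968-35263047, plus strand): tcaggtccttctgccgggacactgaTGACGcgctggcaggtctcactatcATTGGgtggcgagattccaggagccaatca
H2-Aa (chr17:34287842-34287922, minus strand): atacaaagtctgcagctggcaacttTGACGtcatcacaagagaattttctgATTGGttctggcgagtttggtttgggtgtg
H2-Eb1 (chr17:34305758-34305837, plus strand): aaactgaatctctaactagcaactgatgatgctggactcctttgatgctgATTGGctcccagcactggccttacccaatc
H2-Eb1 is shown for contrast in this exact search only, as its window held ATTGG without TGACG. Variant forms of the X2 core were not searched for, so these letters do not show that H2-Eb1 lacks an X box. The Tap1 window held both cores, each counted on either strand, but not as this pair in strand, order and spacing. The H2-D1 stretch lies inside the longer GENCODE span of that gene, since the start that RefSeq gives lies further in. A match of letters is not a bound site.

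The tables held 10197 barcodes for the control and 7967 for the treated library, with 13177525 and 10875248 unique molecular identifiers (UMIs, 1 per captured RNA molecule), and at least 500 UMIs in every barcode. After filtering, 9522 and 7644 nuclei remained, with a median of 1012 and 1055 UMIs, and 47 of their barcodes occurred in both libraries. Scrublet marked 5.85% and 3.87% of nuclei as doublets, and these were left out. Nuclei were clustered without the members or any gene of the pathway lists, so the levels below did not shape the clusters. The clusters were named from marker genes as endothelial-like cells (ECs), fibroblast-like cells, cardiomyocyte-like cells and so on, written here without "-like". MPs are cells with macrophage markers such as Cd163, Csf1r and C1qa. The T cell cluster detected 11 of 11 listed markers, the B cell cluster 10 of 10 and the main MP cluster 13 of 14. Levels are UMIs of a gene per 1000000 UMIs of a cell type (CPM), and intervals cover 95% of counting error only, not the spread between mice.

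Class I transcripts were found in every cell type, with the most in T cells and mesothelial cells and the least in cardiomyocytes. The sum of B2m, H2-K1, H2-D1 and Tap1 was 9313 CPM in T cells of the control library and 12784 CPM in T cells of the treated library, which is 7.41 and 8.43 times the level of cardiomyocytes in the same library. In mesothelial cells, the lining of the heart surface, it was 7270 and 9512 CPM. ECs held 6778 and 7567 CPM. B cells followed with 5509 and 7082 CPM, glial cells with 5006 and 5693 CPM on 30 and 10 nuclei, and MPs with 4954 and 6251 CPM. B cells exceeded MPs by 1.11 and 1.13 times, beyond counting error, while the glial interval of 4265 to 5839 CPM in the control library held both. Fibroblasts were lower at 3197 and 3544 CPM. Adipocytes held 1786 and 2408 CPM, mural cells 1323 and 1533 CPM, and cardiomyocytes 1256 and 1516 CPM. Mural cells and cardiomyocytes did not differ beyond counting error in either library. After thinning each nucleus to 500 UMIs, the control log2 level over cardiomyocytes was 2.15 in ECs and 2.06 in mesothelial cells, so that this pair changed places.

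**Figure D1:**
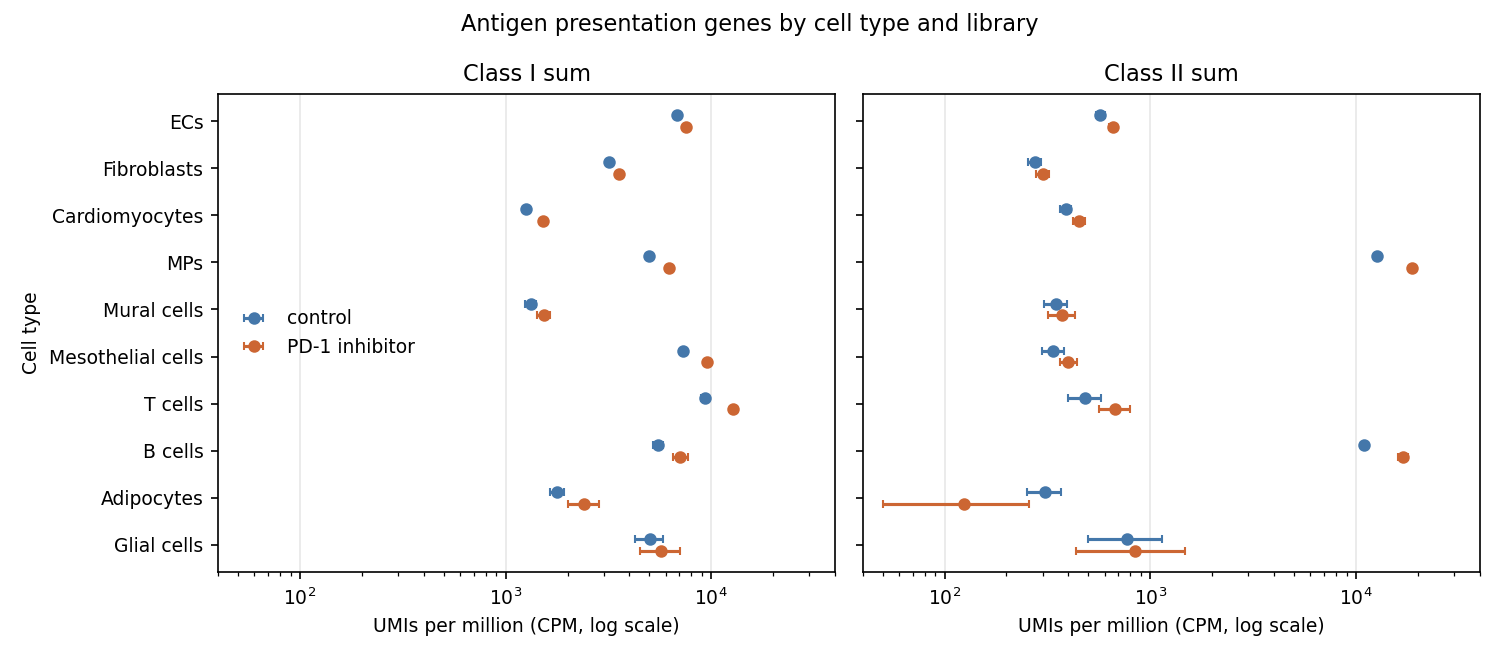
Level of the class I sum (left) and class II sum (right) in each cell type, in CPM on a log axis, for the control and treated libraries, with 95% counting intervals. Class I sums lie between 1256 and 12784 CPM in all types, while class II sums reach 10989 CPM or more in MPs and B cells and at most 843 CPM elsewhere.

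Within ECs of the control library the class I level varied less between clusters than between cell types. It ran from 5660 CPM in the lymphatic cluster (led by Mmrn1 and Reln) to 7261 CPM in the cluster led by Ahsg and H19, with 6825 CPM in the capillary cluster (led by Aplnr). Among cardiomyocytes the cluster led by Acta1 held 2123 and 2150 CPM and the atrial cluster 1624 and 2121 CPM, both above the 1256 and 1516 CPM of the type as a whole. Among fibroblasts the cluster led by Wif1 held 1117 and 1018 CPM, against 2957 and 3388 CPM in the cluster led by Rgs17 and 3926 and 4112 CPM in the one led by Cilp.

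Nlrc5 was the class I member with the clearest preference for a cell type. Its level in T cells was 855 CPM in the control library and 900 CPM in the treated library, with at least 1 UMI in 45.0% and 44.0% of T cell nuclei. MPs held 280 and 227 CPM, B cells 179 and 126 CPM and ECs 166 and 113 CPM. Adipocytes held 190 CPM in the control library, with an interval of 148 to 241 CPM that overlaps those of B cells and ECs, and 285 CPM, on 16 UMIs, in the treated library. Cardiomyocytes, mural cells, fibroblasts and mesothelial cells lay between 45.6 and 55.0 CPM in the control library, without separation beyond counting error. Mesothelial cells thus paired a high class I sum with a low Nlrc5 level. Over 34 points, made of 17 cell subtypes in both libraries, the correlation of log2 levels with the class I sum was 0.68 for Nlrc5 and 0.80 for Tap1. As both libraries and all subtypes of a library share its depth and free RNA, these values describe the tables only.

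Class II transcripts were concentrated in MPs and B cells. The sum of H2-Aa, H2-Ab1, H2-Eb1 and Cd74 was 12680 CPM (95% interval 12490 to 12873) in MPs of the control and 18820 CPM (18553 to 19090) in MPs of the treated library. In B cells it was 10989 and 16998 CPM. These are 32.7 and 41.9 times the cardiomyocyte level for MPs, and 28.3 and 37.8 times for B cells. Cardiomyocytes, which are not expected to make class II molecules, held 388 and 449 CPM and serve as the background. ECs held 572 and 662 CPM, 1.48 and 1.47 times the cardiomyocyte level, with log2 intervals of 0.45 to 0.68 in both libraries. With at most 5% mitochondrial UMIs per nucleus this log2 difference was 1.23 and 1.13. T cells held 480 and 673 CPM, 1.24 and 1.502 times the cardiomyocyte level, and after thinning the control log2 difference was -0.0078. Glial cells held 773 and 843 CPM on 25 and 12 UMIs, and adipocytes 306 and 125 CPM on 111 and 7 UMIs. Fibroblasts (274 and 300 CPM), mural cells (349 and 372 CPM) and mesothelial cells (338 and 400 CPM) were at or below the cardiomyocyte level. This order depended on the filter, as with at most 5% mitochondrial UMIs the control log2 level over cardiomyocytes was 0.17 in fibroblasts, 0.52 in mural cells and 0.44 in mesothelial cells, so whether these types lie at the background was not settled.

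The share of nuclei with a class II UMI also set MPs and B cells apart. After each nucleus was thinned to 500 UMIs, 80.1% of MP nuclei in the control and 83.9% in the treated library had at least 1 class II UMI, as did 96.6% and 96.3% of B cell nuclei. ECs stood at 20.3% (18.8 to 21.8) and 21.6% (19.999 to 23.3), and cardiomyocytes at 15.4% (13.4 to 17.5) and 17.7% (15.5 to 20.1). T cells stood at 13.03% (9.02 to 17.98) and 23.8% (18.01 to 30.5), below and above the cardiomyocyte share. Without thinning the order of the last pair was turned, with 31.6% and 35.7% of ECs at a median of 895.5 and 947 UMIs, and 35.3% and 41.0% of cardiomyocytes at a median of 1406.5 and 1435 UMIs. Unthinned shares were 84.6% and 88.0% in MPs and 97.7% and 98.8% in B cells. The amount per nucleus separated the types further. At least 5 class II UMIs after thinning were found in 50.3% and 60.5% of MPs and in 56.5% and 77.5% of B cells, but in 0.214% and 0.439% of ECs and 0.234% and 0.275% of cardiomyocytes.

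The make-up of the class II UMIs was set side by side in ECs and MPs. Cd74 made up 47.6% of class II UMIs in ECs of the control library and 50.02% in MPs, and H2-Aa made up 15.4% and 16.0%, while H2-Ab1 differed beyond counting error, at 21.0% (19.1 to 23.1) against 18.2% (17.7 to 18.8). In the treated library Cd74 (48.1% in ECs and 52.3% in MPs) and H2-Aa (18.4% and 15.6%) had intervals that did not overlap. In control cardiomyocytes Cd74 made up 48.5% and H2-Aa 17.1%. B cells differed, with 56.7% Cd74 in the control and 60.5% in the treated library. The regulator Ciita was set against the same UMIs. Per 100 class II UMIs there were 2.48 Ciita UMIs (1.78 to 3.36) in ECs of the control library, 2.18 (1.97 to 2.42) in MPs and 1.49 (0.809 to 2.51) in cardiomyocytes. In the treated library there were 1.31 (0.845 to 1.94) in ECs, 1.34 (1.18 to 1.52) in MPs and 0.878 (0.378 to 1.74) in cardiomyocytes. Macrophage markers and Ptprc, the pan-leukocyte gene, were also counted in ECs. At least 1 such UMI occurred in 35.9% of control ECs with a class II UMI and in 29.7% of those without, at a median of 1006 and 855 UMIs. In the treated library it was 37.1% and 34.8%, at a median of 1071 and 882.5 UMIs. Per total UMIs these markers stood at 498 CPM with and 465 CPM without class II in the control, and at 482 and 510 CPM in the treated library. Whether ECs made these transcripts or held them as free RNA was not tested.

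Ciita was found almost only in MPs and B cells. It reached 277 and 252 CPM in MPs and 311 and 214 CPM in B cells, against 14.2 and 8.67 CPM in ECs, 5.76 and 3.94 CPM in cardiomyocytes and 4.35 and 8.85 CPM in fibroblasts. Over the 34 subtype points its correlation with the class II sum was 0.90. Among 11304 genes outside the lists, those most like the class II sum included Pld4 (0.93), Unc93b1 (0.91), Fcgr2b (0.89) and Themis2 (0.89). Unc93b1 carries endosomal Toll-like receptors, and Fcgr2b is the inhibitory Fc receptor of B cells and macrophages. For the class I sum they were Ly6e (0.94), Rad21 (0.86), Slc3a2 (0.86), Ahnak (0.85) and Tmbim6 (0.85). These correlations are descriptions over points that share 2 libraries.

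The next question was how the 2 libraries differed within a cell type. A log2 ratio is the treated level over the control level with 0.5 UMI added to each count, genes with fewer than 50 UMIs over the pair of libraries are left out, and a gene is called past the fold at a log2 ratio of at least 0.5 in size. In MPs the class II sum had a log2 ratio of 0.57 (0.54 to 0.60), from 16934 and 18943 UMIs. Cd74 stood at 0.63 (0.59 to 0.68), H2-Aa at 0.54 (0.46 to 0.62), H2-Ab1 at 0.51 (0.44 to 0.58) and H2-Eb1 at 0.46 (0.38 to 0.53). So 3 of the 10 members were past the fold upward in MPs, where 9.9% of all genes were, and 0 of 10 downward, where 9.94% of all genes were. The regulator Ciita had 370 UMIs in the control and 254 in the treated library, a log2 ratio of -0.13 (-0.37 to 0.10). Per 100 class II UMIs there were 2.18 Ciita UMIs in MPs of the control and 1.34 (1.18 to 1.52) in MPs of the treated library. This measure was also lower in the treated library in ECs (2.48 and 1.31) and B cells (2.83 and 1.26). It was lower too in cardiomyocytes, mural cells, mesothelial cells and T cells, on at most 14 Ciita UMIs in a library. It was higher in fibroblasts (1.59 and 2.95), on 13 and 22 Ciita UMIs, and in adipocytes, on 4 and 3. Ciita, at 48.4 kb, is longer than the class II chain genes and Cd74, and the part of gene length in this measure was not tested. In the class I arm of MPs, B2m stood at 0.49 (0.39 to 0.58), H2-D1 at 0.34 (0.26 to 0.42) and H2-K1 at 0.20 (0.11 to 0.29). Tap1 stood at 0.11 (-0.22 to 0.44) and Nlrc5 at -0.30 (-0.55 to -0.06).

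B cells showed a like pattern on fewer nuclei, 177 in the control and 80 in the treated library. The class II sum had a log2 ratio of 0.63 (0.53 to 0.73), with Cd74 at 0.72, H2-Ab1 at 0.70, H2-Aa at 0.50 and H2-Eb1 at 0.22. H2-D1 stood at 0.66 and Ciita at -0.51 (-1.40 to 0.25) on 66 and 17 UMIs. Past the fold were 4 of 9 members upward against 15.8% of all genes, and 1 of 9, Ciita, downward against 20.3%. With at least 500 genes per nucleus the class II ratio of B cells was 0.41.

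T cells differed in class I. The class I sum had a log2 ratio of 0.46 (0.37 to 0.54), with B2m at 0.67 (0.48 to 0.85), Tap1 at 0.47 (-0.03 to 0.96), H2-D1 at 0.40 and H2-K1 at 0.40. B2m and Cd74 were past the fold upward, 2 of 7 members against 13.6% of all genes, and 0 of 7 were downward against 16.1%. Cd74 in T cells rested on 46 and 75 UMIs (log2 ratio 0.96, 0.42 to 1.53), and the class II sum of T cells changed sign, from 0.48 to -0.20, when doublets were kept. Nlrc5 in T cells was nearly level at 0.07 (-0.23 to 0.37).

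In mesothelial cells the class I sum had a log2 ratio of 0.39 (0.34 to 0.43), with B2m at 0.44, H2-K1 at 0.37 and H2-D1 at 0.37. Past the fold upward were 2 of 9 members against 8.41% of all genes, namely Nlrc5 (0.54, -0.06 to 1.17) and H2-Aa (22 and 64 UMIs, at background level), and downward 0 of 9 against 8.82%. The mesothelial libraries differed in depth, with a median of 1297.5 and 1724 UMIs per nucleus. After thinning the class I ratio was 0.51.

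ECs, fibroblasts and cardiomyocytes had smaller ratios in the class I sum, 0.16 (0.13 to 0.19), 0.15 (0.11 to 0.19) and 0.27 (0.20 to 0.34). Within ECs the heavy chains parted, as H2-K1, with 6444 and 6283 UMIs, had a ratio of 0.00 on the log2 scale (-0.05 to 0.05), while H2-D1 had 6756 and 7625 UMIs and a ratio of 0.21 (0.17 to 0.26), and B2m stood at 0.26. The same split was seen in fibroblasts, with H2-K1 at -0.02 and H2-D1 at 0.19, and in cardiomyocytes, with 0.08 and 0.39. These heavy chains are close relatives of each other and of the H2-Q genes, so reads may have been divided between them in the counting, and the split is uncertain. In cardiomyocytes the ratio was 0.10 for the class I sum and 0.00 for the class II sum once the cardiomyocyte clusters were weighted alike in the libraries, and after thinning it was 0.068 for the class I sum. Mural cells stood at 0.21 (0.07 to 0.35) for class I, with pericytes at 0.31 and the smooth muscle cluster at -0.42 on 177 and 78 UMIs.

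Nlrc5 had a negative ratio in 5 of the 8 cell types with at least 50 UMIs. The others were T cells, mesothelial cells and adipocytes (0.62, -0.30 to 1.38, on 69 and 16 UMIs). In ECs it had 492 UMIs in the control and 327 in the treated library, 166 and 113 CPM, with a log2 ratio of -0.55 (-0.76 to -0.35). In cardiomyocytes the ratio was -0.57 (-1.02 to -0.15), in fibroblasts -0.44 (-0.85 to -0.04) and in mural cells -0.46 (-1.35 to 0.35). In ECs, Nlrc5 and Ciita (-0.70, -1.48 to 0.04, on 42 and 25 UMIs) were the 2 of 10 members past the fold downward, against 6.64% of all genes, and 0 of 10 were upward against 8.9%. In cardiomyocytes, Nlrc5 and Tap1 (-0.60, -1.40 to 0.14, on 44 and 24 UMIs) made 2 of 9 downward against 11.6%, and 0 of 9 were upward against 11.8%. In fibroblasts 0 of 9 members passed the fold upward, against 8.31% of all genes, and 0 of 9 downward, against 5.95%. In mural cells 0 of 8 passed upward, against 11%, and 1 of 8 downward, H2-Ab1 on 47 and 21 UMIs, against 12.2%. The shares of members in ECs, fibroblasts, cardiomyocytes and mural cells are counts of at most 2 genes and say little beside these backgrounds.

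**Figure D2:**
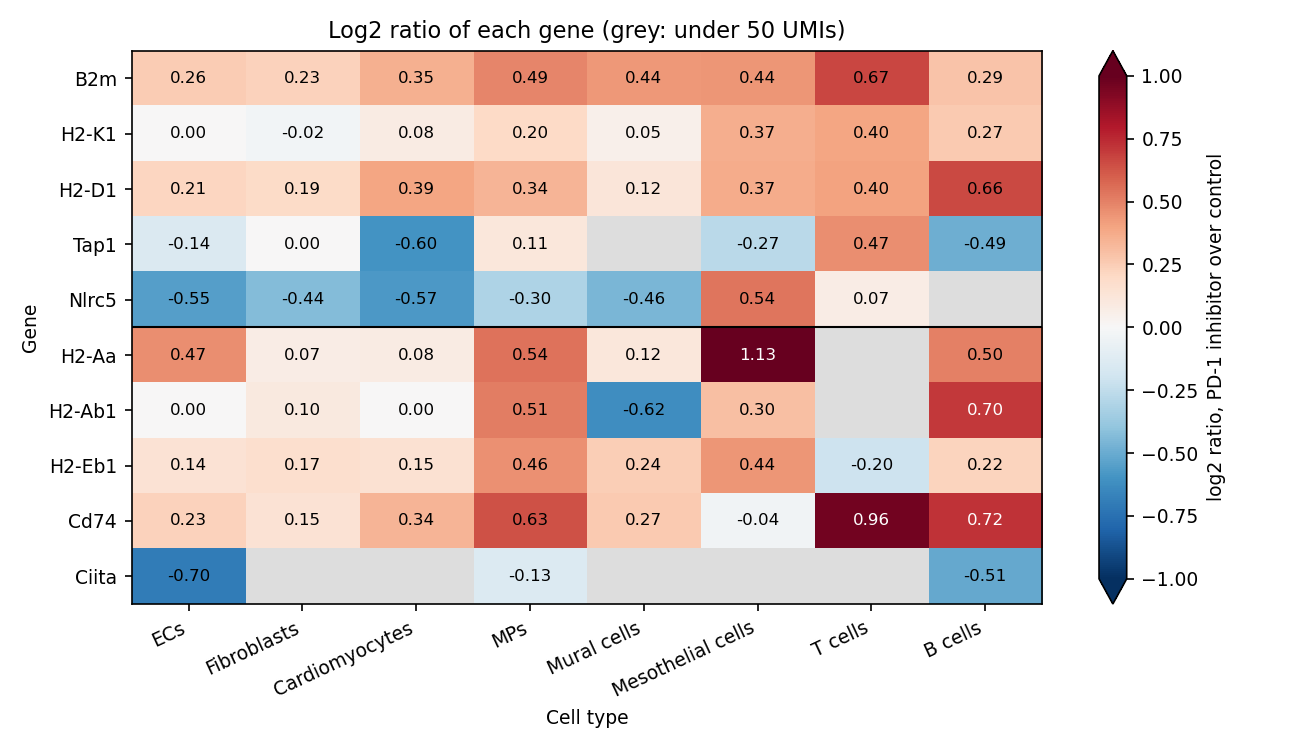
Log2 ratio of the PD-1 inhibitor over the control library for each of the 10 genes (rows, class I above the line and class II below it) in 8 cell types (columns), with grey where both libraries together held under 50 UMIs. The MP column is positive for all class II chains and Cd74 (0.46 to 0.63), and the Nlrc5 row is negative in ECs, fibroblasts, cardiomyocytes, MPs and mural cells.

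These ratios moved with gene length, which was measured over all genes. When the genes of a cell type were divided into 5 equal groups by genomic span, the median log2 ratio in ECs ran from 0.22 in the shortest group to -0.17 in the longest. It ran from 0.20 to -0.17 in fibroblasts, from 0.26 to -0.27 in cardiomyocytes, from 0.18 to -0.20 in MPs and from 0.29 to -0.24 in T cells, but only from 0.05 to -0.02 in mesothelial cells. B2m, H2-K1, H2-D1, Tap1, H2-Aa and Cd74 were in the shortest group in ECs, fibroblasts and cardiomyocytes, and Nlrc5 in the longest. Relative to genes of their own length group, the class I sum stood at -0.06 in ECs, -0.05 in fibroblasts, 0.01 in cardiomyocytes and -0.02 in mural cells. The class I ratio in ECs, fibroblasts, cardiomyocytes and mural cells was therefore close to or below that of other short genes. H2-D1 then stood at -0.0089 in ECs and -0.0065 in fibroblasts. For Nlrc5 the same step left -0.38 in ECs, -0.30 in cardiomyocytes, -0.26 in fibroblasts and -0.11 in MPs, so it was no longer past the fold in ECs and cardiomyocytes. For the class I sum 0.34 remained in mesothelial cells, 0.18 in B cells, 0.16 in T cells and 0.15 in MPs. For the class II sum 0.41 remained in MPs and 0.45 in B cells, against 0.03 in ECs, -0.03 in fibroblasts and 0.01 in cardiomyocytes. No member of MPs was then past the fold upward. What set the relation with length, and its part in each ratio, was not tested.

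**Figure D3:**
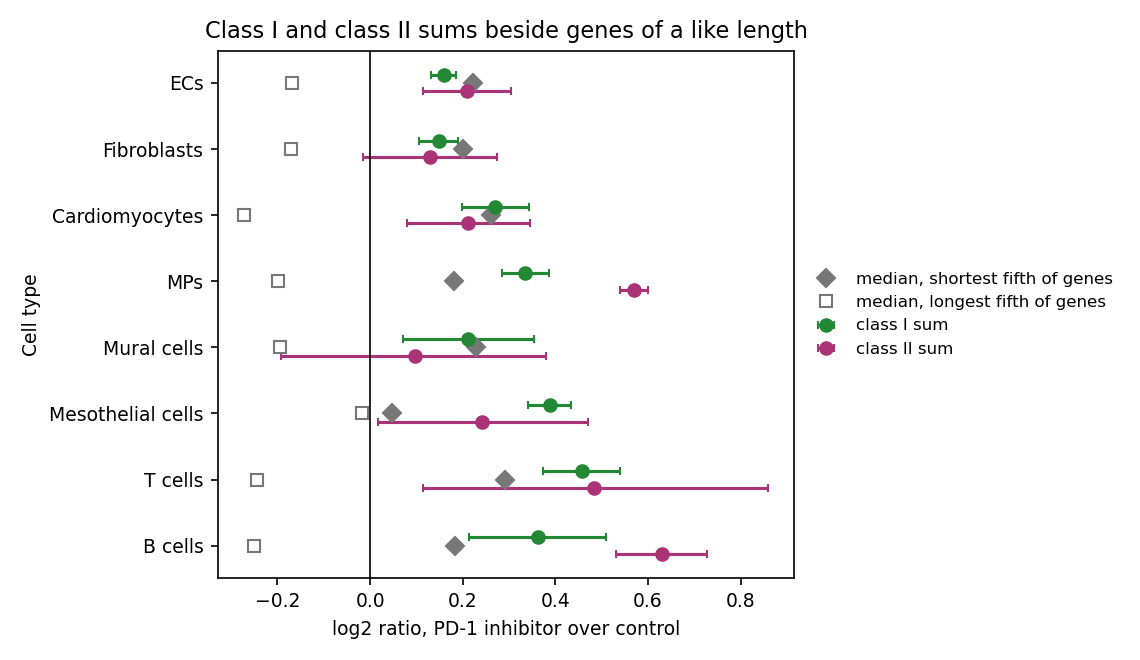
Log2 ratio of the class I sum and the class II sum with 95% counting intervals in 8 cell types, beside the median ratio of the shortest and of the longest 1 of 5 groups of genes by genomic span. The class I and class II sums lie close to or below the short-gene median in ECs, fibroblasts, cardiomyocytes and mural cells, and above it in MPs and B cells.

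The class II difference was then followed within MPs. The main MP cluster (led by Ms4a14 and Ms4a7) detected 8 of 8 macrophage and 0 of 7 dendritic cell markers, and its class II sum was 11691 CPM in the control and 18526 CPM in the treated library, a log2 ratio of 0.66 (0.63 to 0.70). The second cluster (led by Cd209a, Klri1 and Clec9a) detected 7 of 8 macrophage and 4 of 7 dendritic cell markers, so it is called by its leading genes. Neil3 and Mki67, genes of dividing cells, were also among its leading genes. Its class II sum was higher to begin with, at 18607 CPM, and reached 20665 CPM, a log2 ratio of 0.15 (0.08 to 0.22). The intervals of the ratios in the 2 clusters did not overlap. After thinning to 500 UMIs, 48.1% and 60.3% of nuclei in the main cluster had at least 5 class II UMIs, and 67.3% and 61.7% in the Cd209a cluster. A finer clustering set dividing MPs apart, with 34 and 31 nuclei and a class II sum of 8350 and 11841 CPM, and their part in the values of the Cd209a cluster was not tested.

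The finer clustering gave 4 named groups of MPs. In the group led by Ms4a14 and Ccl12 (506 and 339 nuclei) class II was 11540 and 20762 CPM, a log2 ratio of 0.85 (0.80 to 0.89). In the group led by Lilra5 and Aoah (407 and 187 nuclei) it was 13853 and 21041 CPM (0.60, 0.53 to 0.67). In the group led by Wfdc17 and Fcna (192 and 273 nuclei), with Folr2 and Pf4 among its leading genes, it was 8778 and 13804 CPM (0.65, 0.57 to 0.74). The group led by Cd209a and Mmp12 (115 and 53 nuclei) held the most class II of the 4 groups in both libraries, 23623 and 27068 CPM. Its ratio was 0.20 (0.12 to 0.28). This group detected 6 of 7 dendritic cell and 3 of 8 macrophage markers, while each other named group detected 0 of 7 and 8 of 8. The class II level was higher in the treated library in each of these 4 groups, and the groups led by Ms4a14 and Lilra5 then did not differ beyond counting error. With the same mix of these groups in both libraries the MP ratio was 0.67, an alternative added after the data were seen. The class I sum had ratios of 0.30, 0.21, 0.26 and 0.16 in the same order.

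**Figure D4:**
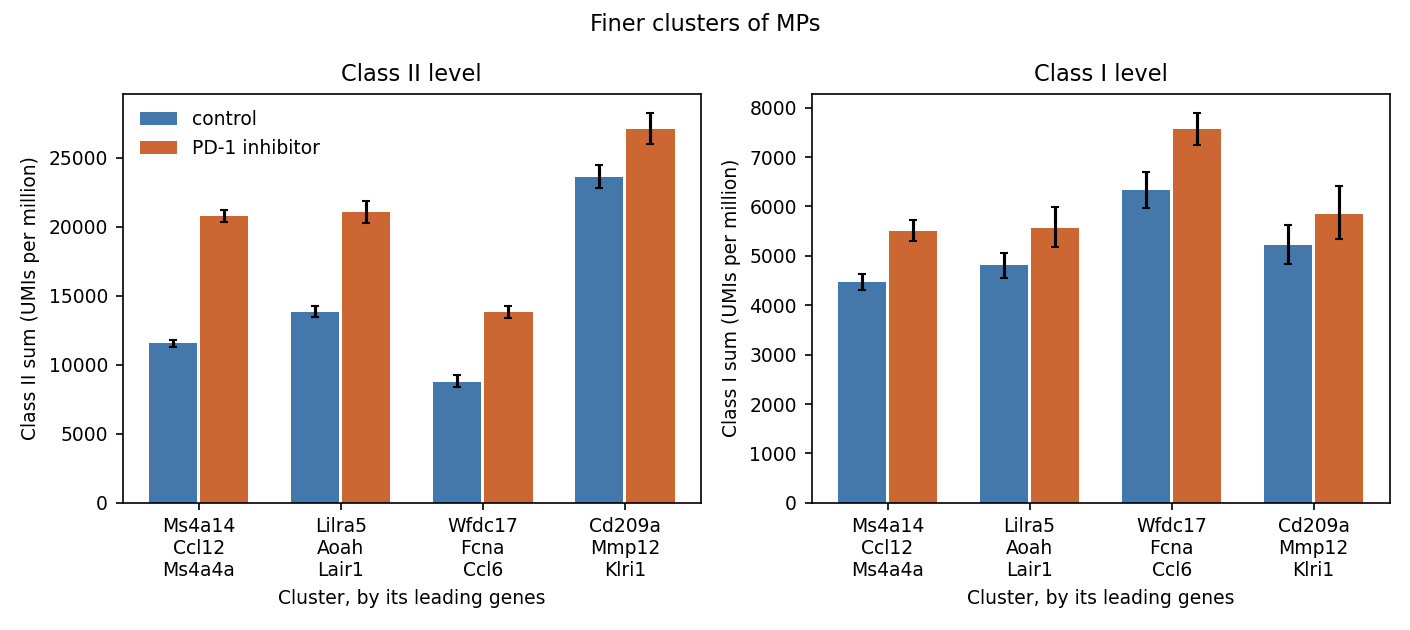
Class II sum (left) and class I sum (right) in CPM for 4 finer groups of MPs named by their leading genes, in the control and treated libraries, with 95% counting intervals as error bars. The treated bar is the higher of each class II pair, from 8778 against 13804 CPM in the Wfdc17 group to 23623 against 27068 CPM in the Cd209a group.

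Ciita differed among these groups in its own way. It had 186 and 119 UMIs in the Ms4a14 group (log2 ratio -0.08, -0.42 to 0.26), 58 and 43 in the Lilra5 group (0.70, 0.09 to 1.29), 3 and 28 in the Wfdc17 group (2.37, 0.87 to 4.93) and 110 and 57 in the Cd209a group (-0.25, -0.74 to 0.22). The Wfdc17 group held the least Ciita, at 16.7 and 98.8 CPM, and the Cd209a group the most, at 839 and 704 CPM. This order follows that of the class II sum at its lowest and highest group.

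Other macrophage genes were also higher in the treated library within the main MP cluster. Lyve1 and Folr2, genes of resident tissue macrophages, had log2 ratios of 0.83 and 0.79, the scavenger receptor Cd163 0.66, the monocyte chemokine receptor Ccr2 0.82 (190 and 255 UMIs) and the fractalkine receptor Cx3cr1 0.55. Timd4, which marks long-lived resident macrophages, stood at -0.14 (-0.44 to 0.16). The class II ratio of 0.66 thus lay within the range of these state genes, and their part in it was not tested.

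Nuclei of the main MP cluster with and without a class II UMI were also set side by side, 929 and 180 in the control and 704 and 98 in the treated library, at a median of 893 and 804.5, and 939.5 and 884.5 UMIs. Timd4 was lower in nuclei with class II, with log2 ratios of -1.26 and -1.30, as were Lyve1 (-0.964 and -0.998) and Folr2 (-0.77 and -0.60). Ccr2 was nearly confined to nuclei with class II, with 190 UMIs against 0 in the control, at least 10.8-fold higher against a floor of 3 UMIs in the nuclei without, and 254 against 1 in the treated library (log2 ratio 4.42, 2.51 to 10.3). Ciita went the same way, with 242 UMIs against 5 (2.91) and 188 against 2 (3.25). The class I chains did not separate these nuclei, as B2m stood at 0.03 and -0.11, H2-K1 at 0.07 and 0.10 and H2-D1 at -0.07 and 0.02, with intervals that held 0. Nlrc5 stood at -0.03 (-0.47 to 0.47) in the control and 0.67 (-0.07 to 1.61) in the treated library. Cathepsin S (Ctss), which trims the invariant chain, was higher with class II by 0.32 and 0.40. Cd86, a co-stimulatory gene, was lower with class II in the control, at -0.73 (-1.10 to -0.32). In the treated library it stood at 0.12 (-0.49 to 0.85). Cd163 gave 0.04 in the control and -0.67 in the treated library. Nuclei were split by the class II genes themselves, so these ratios describe the nuclei and are not tests.

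**Figure D5:**
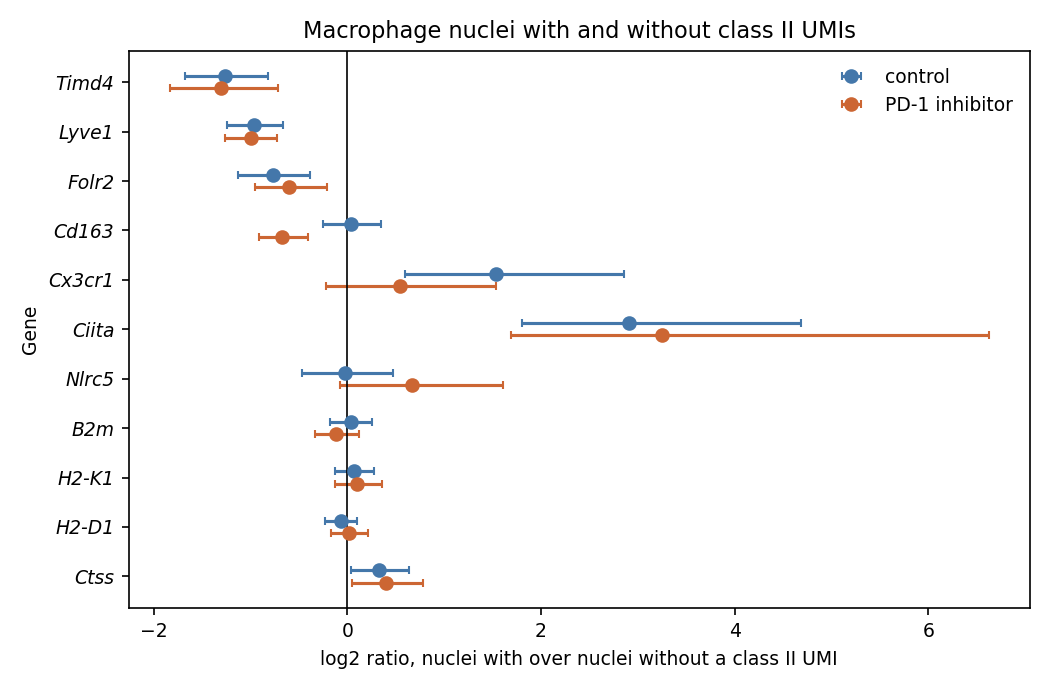
Log2 ratio of each gene in nuclei with over nuclei without a class II UMI, in the main MP cluster of the control and treated libraries, with 95% counting intervals. Timd4, Lyve1 and Folr2 lie left of 0, Ciita lies at 2.91 and 3.25, and B2m, H2-K1 and H2-D1 lie near 0. Nlrc5 lies at -0.03 in the control and 0.67 in the treated library, with intervals that hold 0. Ccr2, with 0 UMIs in control nuclei without class II, is not drawn.

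The other genes of the pathways were read from lists written from general knowledge. In the control library Ctss stood at 783 CPM in MPs and 646 CPM in B cells, March1 at 412 and 882 CPM, and H2-DMb1 at 257 and 528 CPM, so the class II machinery marked the same types as the chains. Ctsl, another cathepsin, was instead high in mesothelial cells (373 CPM) and fibroblasts (347 CPM) against 69.6 CPM in MPs. The co-stimulatory gene Cd86 reached 274 CPM in MPs and Cd40 297 CPM in B cells. In MPs all 7 measured class II chains and chaperones had a positive ratio with a median of 0.51, beside -0.03 over all genes. Among them H2-DMa stood at 0.64 and H2-DMb1 at 0.40, the chains of the peptide exchange factor H2-DM, and H2-Ob, part of its inhibitor, at 0.33. H2-Ob was largely a B cell gene, with 656 CPM in B cells and 27.7 CPM in MPs of the control library. Of the genes of class II processing in MPs, Ctsl stood at 0.45, Ifi30 (a lysosomal thiol reductase) at 0.43, Lgmn (an endosomal protease) at 0.34, Ctss at 0.21 and March1, the ubiquitin ligase that removes class II from the surface, at -0.08. Co-stimulation went in both directions in MPs. Cd86 stood at -0.14 (366 and 250 UMIs), Cd80 at -0.13 (108 and 74) and Cd40 at 0.21 (77 and 67). Cd86 and Cd80 span 62.2 and 40.8 kb and Cd40 17.3 kb, and the part of gene length in these ratios was not tested.

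The immunoproteasome list, whose genes make the peptides for class I, had positive medians in ECs (0.34, 5 of 5 genes positive), fibroblasts (0.44, 5 of 5), cardiomyocytes (0.45, 4 of 5) and MPs (0.33, 4 of 5). In ECs these were Psmb9 at 0.54, Psmb10 at 0.45, Psmb8 at 0.34, Psme1 at 0.30 and Psme2 at 0.24. All are short genes, and relative to genes of their length group the median was 0.12 in ECs, 0.24 in fibroblasts, 0.19 in cardiomyocytes and 0.15 in MPs. The peptide loading list was near 0 in ECs (median -0.02, 4 of 8 positive). There Pdia3 stood at 0.22, Calr at 0.11, Tap2 at 0.02, Tapbpl at 0.01, Canx at -0.06, Tapbp at -0.09 and Erap1, which trims peptides, at -0.24. In MPs its median was 0.14 with 6 of 8 positive.

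Among class I heavy chains T cells had 7 of 7 positive ratios with a median of 0.40. Over all genes in T cells 1041 of 2184 were positive, and the shortest group by span had a median of 0.29. The chains were led by the non-classical chain H2-T23 (0.91) and H2-T22 (0.64), with H2-Q6 at 0.36, H2-Q7 at 0.27 and H2-Q4 at 0.25. H2-Q7 was highest in T cells, at 1833 CPM in the control library against 424 CPM in ECs. Mesothelial cells had 7 of 8 positive with a median of 0.45, with H2-M3 at 1.05, H2-Q6 at 0.80, H2-Q7 at 0.64 and H2-Q4 at 0.54. Over all mesothelial genes 3648 of 7278 were positive, and the shortest group had a median of 0.05. In ECs the median was -0.06 with 4 of 11 positive, where H2-T23 stood at 0.15, Mr1 at 0.16, Cd1d1 at -0.06 and H2-T24 at -0.33. Over all EC genes 5425 of 10693 were positive, and the shortest group had a median of 0.22. The part of gene length in these heavy chain ratios was not tested. The H2-Q genes share long stretches of sequence, so their counts are uncertain one by one.

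The regulators that bind the X and Y boxes did not move together. In ECs Rfxap stood at 0.39, Rfx5 at 0.30, Nfya at 0.07, Nfyc at 0.02, Nfyb at -0.09, Creb1 at -0.14 and Rfxank at -0.18, and the list median with Nlrc5 and Ciita was -0.09. In MPs the median was -0.13, with Rfxap at 0.78 and Rfxank at -1.29, and it was 0.21 when genes with 20 UMIs were let in. For the interferon gamma pathway, which induces both Nlrc5 and Ciita, the median was -0.13 in ECs (2 of 7 positive), -0.15 in fibroblasts (3 of 7) and -0.06 in MPs (3 of 7), but 0.23 in cardiomyocytes (4 of 7), 0.20 in T cells (3 of 5) and 0.13 in mesothelial cells (4 of 7). After thinning the cardiomyocyte median was -0.16. In MPs Irf1 stood at -0.51, Irf2 at -0.32, Jak2 at -0.31, Ifngr2 at -0.06, Jak1 at 0.18 and Ifngr1 at 0.44. Ifng itself had 38 UMIs in all retained nuclei of both libraries, too few for a ratio.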

How the data were processed

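Nuclei were isolated from hearts and sequenced with the GEXSCOPE single-nucleus kit of Singleron, 1 library per condition. The authors deposited raw UMI counts (whole numbers, not normalized) for 32589 genes in sparse form, and every barcode held 500 UMIs or more. The submitters' processing notes name GRCm38 and mm10, and the aligner and counter are not given in the sources used here. Gene spans came from the GENCODE annotation of the same build, and promoters from RefSeq (GRCm38.p6).

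A minimum of 200 genes and a limit of 20% mitochondrial UMIs removed 83 control and 15 PD-1 inhibitor barcodes, and Scrublet with exact neighbours removed 592 and 308 as doublets. With scanpy 1.11.5 and leidenalg 0.10.2, 2000 variable genes without members and lists, 30 principal components, 15 neighbours and a Leiden resolution of 1 gave 21 clusters, of which 20 were named from at least 3 detected markers. These names were rebuilt here. UMIs were summed per cell type and library. Intervals are exact Poisson, exact binomial (Clopper-Pearson) or exact conditional binomial at 95%, and cover counting error only. Thinning to 500 UMIs left out no nucleus. The log2 ratio with its interval was tested on simulated Poisson counts, and thinning on a simulated table. Clustering, naming and the other steps were not tested in this way. The members, lists and alternatives were chosen with earlier results of these data known.

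Named genes were all members, list genes with at least 200 UMIs, and the 5 genes most correlated with each sum. Alternatives were other filters on genes and mitochondrial UMIs, doublets kept, resolutions of 0.5 and 2, members among the variable genes, totals without mitochondrial and ribosomal protein genes, centring, means over nuclei, thinning, equal subtype mix, gene length and a minimum of 20 UMIs. Irf8 and a few genes that this rule names are not reported here, and the older symbol March1 was used for Marchf1.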

Additional observations from a re-analysis of the deposited data

Results flagged for a closer look

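In adipocytes the ratios of Cd74 and the class II sum were opposite in sign to those of some other types. The log2 ratio of Cd74 was -2.04 in adipocytes, on 66 and 2 UMIs, and 0.96 in T cells, on 46 and 75 UMIs. For the class II sum it was -1.20 in adipocytes, on 111 and 7 UMIs, and 0.63 in B cells. The adipocytes of the treated library were 16 nuclei, and these differences between cell types were not tested.

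The barcodes called doublets, 592 and 308, and the unnamed cluster of cycling nuclei, 30 and 13, were left out of the main values of the report. The doublets held 4358 and 5457 CPM of class I transcripts, a log2 ratio of 0.32, and 2591 and 2953 CPM of class II transcripts, a log2 ratio of 0.19. The cycling cluster held 5282 and 7662 CPM of class I transcripts, a log2 ratio of 0.54 (0.26 to 0.81), and 17 and 5 class II UMIs.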

How the results depend on the processing

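Counting intervals with 1 library per condition cannot show the spread between mice, and no level of free RNA was measured. No paired analysis was possible because each condition had 1 library. The log2 ratio of the class I sum stayed within its counting interval in 80 of 95 cell types and settings and kept its sign in 92, and that of the class II sum in 82 and 91 of 95. For single members 766 of 806 values stayed within the interval and 51 changed sign. For list medians the bounds were the medians of the single-gene bounds, which is not an interval of the median itself. Within these wide bounds 365 of 371 stayed, which says little of how stable the medians are. Levels over cardiomyocytes depended more on the setting, as 52 of 126 class I and 31 of 126 class II values left the interval and 3 and 7 changed sign. Of the counts past the fold 35 of 202 moved by over 1.5 times, and of the shares with a class II UMI 24 of 112 left the interval. Of values whose interval excluded 0, the sign turned for class I in ECs, fibroblasts and mural cells and for H2-D1 in ECs (-0.0089) and fibroblasts (-0.0065) relative to length, for class II in T cells with doublets kept, and for 4 class II levels over cardiomyocytes: 0.17 in control fibroblasts, 0.44 in control mesothelial cells and 0.29 in mural cells of the treated library with at most 5% mitochondrial UMIs, and -0.0078 in control T cells after thinning. Where a value moved, the cause was not tested.

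Relative to genes of the same length group, the class I sum had a log2 ratio of -0.064 in ECs, -0.052 in fibroblasts, 0.0099 in cardiomyocytes, 0.15 in MPs, -0.016 in mural cells, 0.34 in mesothelial cells, 0.16 in T cells and 0.18 in B cells. The class II sum had 0.035 in ECs, -0.028 in fibroblasts, 0.0084 in cardiomyocytes, 0.41 in MPs and 0.45 in B cells. Past the fold were then 0 members upward in MPs, 1 in T cells and 2 in B cells, and 1 downward each in ECs and cardiomyocytes. The list medians became 0.12 for the immunoproteasome in ECs, -0.12 for class I heavy chains in cardiomyocytes and 0.36 for class II chains in MPs.

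With doublets kept, the class II ratio was 0.072 in cardiomyocytes and -0.20 in T cells, and the class II processing median in ECs was -0.027. Members past the fold upward were then 1 each in ECs, mesothelial cells and T cells, and downward 1 in cardiomyocytes, 2 in T cells and 2 in B cells. In the control and then the treated library the log2 class I level over cardiomyocytes was 2.31 and 2.24 in ECs and 2.71 and 2.95 in T cells. For class II it was 0.37 in ECs of the control, 4.63 and 5.15 in MPs and 4.47 and 5.02 in B cells.

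With at most 5% mitochondrial UMIs, these levels, control first, were 2.98 and 2.85 for class I in ECs, 3.44 and 3.63 in T cells, and for class II 1.23 and 1.13 in ECs, 5.65 and 5.91 in MPs and 5.52 and 5.78 in B cells. The share of cardiomyocytes with a class II UMI was 29.1% and 35.3%, and in cardiomyocytes 1 member was past the fold upward and 0 downward. With at least 500 genes per nucleus, the class I ratio was 0.35 in mural cells and the class II ratio 0.41 in B cells. Past the fold were 1 upward and 1 downward in ECs, 1 downward in cardiomyocytes, 0 downward in mural cells, 1 upward in mesothelial cells, and 2 upward and 0 downward in B cells. The class I level over cardiomyocytes was 2.49 in control ECs and the class II level 5.08 in B cells of the treated library. The share with a class II UMI was 34.8% and 39.8% in ECs, 46.3% in cardiomyocytes of the treated library and 100% in control B cells.

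After thinning to 500 UMIs, the class I ratio was 0.068 in cardiomyocytes and 0.51 in mesothelial cells, the interferon gamma median in cardiomyocytes was -0.16, and past the fold were 0 downward in ECs, 1 in cardiomyocytes, 0 in mural cells and 0 in B cells, with 2 upward in mural cells and 2 in B cells. The class I level over cardiomyocytes was 2.15 and 2.26 in ECs and 2.73 in control T cells, and the class II level 0.42 and 0.43 in ECs. Shares with a class II UMI were 20.3% and 21.6% in ECs, 15.4% and 17.7% in cardiomyocytes, and 80.1% and 83.9% in MPs. As a mean over nuclei, the class I ratio was 0.15 in cardiomyocytes and 0.45 in mesothelial cells and the class II ratio 0.040 in cardiomyocytes. Then 1 member was past the fold upward and 2 downward in mural cells. The class I level over cardiomyocytes was 2.18 and 2.20 in ECs and 2.73 in control T cells, and the control class II level 0.34 in ECs, 4.86 in MPs and 4.64 in B cells.

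With the same mix of subtypes, the cardiomyocyte ratios were 0.10 for class I and 0.0036 for class II, and 1 member each was past the fold downward in ECs and cardiomyocytes. Alternatives added after the data were seen gave MPs a class I ratio of 0.26 and a class II ratio of 0.67 with the same mix of finer clusters, and a class II ratio of 0.66 without the Cd209a cluster. Centred on the median of all genes, the class II ratio was 0.60 in MPs, and 0 members were past the fold downward in B cells. At a Leiden resolution of 0.5 there were 2 downward in B cells, whose class II level over cardiomyocytes was 4.48 and 4.90 and share with a class II UMI 87.4% and 88.2%. At a resolution of 2 there was 1 downward in fibroblasts. With members and lists among the variable genes, 2 were downward in B cells. With a minimum of 20 UMIs, 1 was upward in fibroblasts and the regulator median in MPs was 0.21.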

Other observations

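The finer clustering also gave a small cluster without a cell type name, of 41 control and 32 treated nuclei, which mixed cell types and counted 38 nuclei from the fibroblasts of the coarser clustering. Its leading genes were the interferon-stimulated genes Cxcl10, Ifit3b, Ifit3 and Gbp5, with Ccl2, Ifit1, Socs1 and Gbp2 after them. Members of the class I pathway stood high in it. The class I sum was 8333 CPM in the control and 9293 CPM in the treated library, against 3197 and 3544 CPM in fibroblasts as a whole. Nlrc5 was at 577 and 495 CPM on 31 and 21 UMIs, and Tap1 at 577 and 448 CPM on 31 and 19 UMIs, where fibroblasts held 45.8 and 33.8 CPM of Nlrc5 and 41.8 and 41.9 CPM of Tap1. The class II sum of this cluster was 967 and 826 CPM, on 52 and 35 UMIs. The ratio between libraries was 0.16 (-0.04 to 0.36) for its class I sum and -0.21 (-1.09 to 0.63) for Nlrc5.

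A cluster of dividing cells in the same finer clustering, 34 and 31 nuclei all from the MPs, led by Neil3, Mki67 and Top2a, held 8350 and 11841 CPM of class II transcripts, a log2 ratio of 0.50 (0.34 to 0.67), with Ciita at 13 and 7 UMIs. Its class I sum was 6362 and 7636 CPM, a log2 ratio of 0.26 (0.07 to 0.46).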
